A study of Saccharomyces cerevisiae with 4 samples.

Results

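The measurements described here are the transcript response to glycerol of a budding yeast strain with little mevalonate kinase, set against the same strain in glucose. ERG12 encodes mevalonate kinase, and the strain carried a DAmP allele of it, a type of allele in which sequence behind the coding region is disrupted so that less transcript is kept. Per the labels the mutant had 10% of parental enzyme activity. The arrays were chosen by the label of the sample alone: 2 of the 8 two-colour arrays of the series, 1 of its 4 comparisons, carried mutant RNA from glycerol in Cy5 and mutant RNA from glucose in Cy3. Each array held 6256 genes with 2 spots per gene, and 5343 genes were bright enough to be tested.

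The mutant was grown in synthetic YNB medium with glucose, washed, and moved to the same medium with glucose or glycerol, each at 20 g/L, at 30 °C. The labels give the parental strain as BY4741, and its arrays had the same 2 carbon sources. The other comparisons set the mutant over the parental strain within glycerol and within glucose, again with 2 arrays each. The slide that held every array gave each comparison its own column, so that the column and the comparison cannot be told apart, and the test RNA was always in Cy5, so that a dye effect and the carbon source cannot be told apart either. The labels disagree on the last step before RNA extraction. One field has 1 h in the new carbon source, another has cultures started at an optical density of 0.1 and taken at 0.5, and the treatment field has 1 h in rich medium at pH 2.5.

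As background, yeast given glucose ferments it and represses the genes for other carbon sources. When glucose is gone, the kinase Snf1 relieves repression by Mig1, and the activators Cat8, Adr1 and the Hap complex switch on acetate and lactate uptake, the glyoxylate cycle, gluconeogenesis, respiration and fatty acid oxidation. Glycerol is phosphorylated by the kinase Gut1 and oxidised by Gut2 at the mitochondrial inner membrane, so that its use needs respiration. Mevalonate kinase acts early in the pathway from acetyl-CoA to sterols, which also feeds the side chain of ubiquinone, haem A, dolichol and the lipid anchors of prenylated proteins.

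The strain labels were checked on their own genes. URA3, a uracil synthesis gene that BY4741 is known to lack, was well above background in 4 of 4 mutant glycerol channels and 4 of 4 mutant glucose channels, against 1 of 4 parental glycerol and 2 of 4 parental glucose channels. HIS3 and LEU2, also known to be deleted in BY4741, were above background in 0 of 4 channels of each RNA. ERG12 itself was above background in 1 of 4 mutant glycerol and 0 of 4 mutant glucose channels, and in 2 and 3 of 4 parental channels, so it was too dim to be tested. MET17, the sulfhydrylase that BY4741 is known to lack, was above background in 4 of 4 channels of every RNA, with processed signals of 17450 and 16100 scanner units in mutant glycerol and 25660 and 38880 in mutant glucose. That signal goes against the genotype known for the strain named in the labels.

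On the 2 mutant arrays the median gene signal was 282 and 354 in Cy3 and 346.75 and 231 in Cy5. Well above background were 4917 to 5499 genes in a channel, and 0 gene spots were saturated. The log2 ratios of the 2 arrays correlated at r = 0.8975 across genes, against 0.9525 for the 2 parental arrays, and the difference between the arrays had an SD of 0.3969 against 0.3304. Values below are log2 glycerol over glucose relative to the average gene, given for array 1, then array 2, then as the fitted mean ± SE (n = 2 arrays). A gene was called, and is said to have risen or fallen, where its Benjamini-Hochberg adjusted p from limma was under 0.05. Spike-in RNA, whose intended amounts are not given in the sources used here, put the median gene at -1.17 on array 1 and -1.69 on array 2. With the ratios centred on the spike-ins, 271 of the 1319 genes called higher stayed above 0 and 1172 of the 1172 called lower stayed below 0.

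In the mutant, 1319 of 5343 genes rose in glycerol, 24.7% of those tested, and 1172 fell, 21.9%. The 2 arrays had the same sign in 2491 of these 2491 genes, as a call on their mean makes likely. The rises were larger than the falls. A rise of log2 1 or more was called for 447 genes (8.37%) and a fall of that size for 288 (5.39%). At log2 2 or more the counts were 139 (2.6%) and 11 (0.206%). Of the genes called higher, 47 were not well above background in glucose on either array, so the size of their folds is uncertain. When array 1 was left out, 942 genes were called higher and 840 lower, and when array 2 was left out, 803 and 650.

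**Figure D1:**
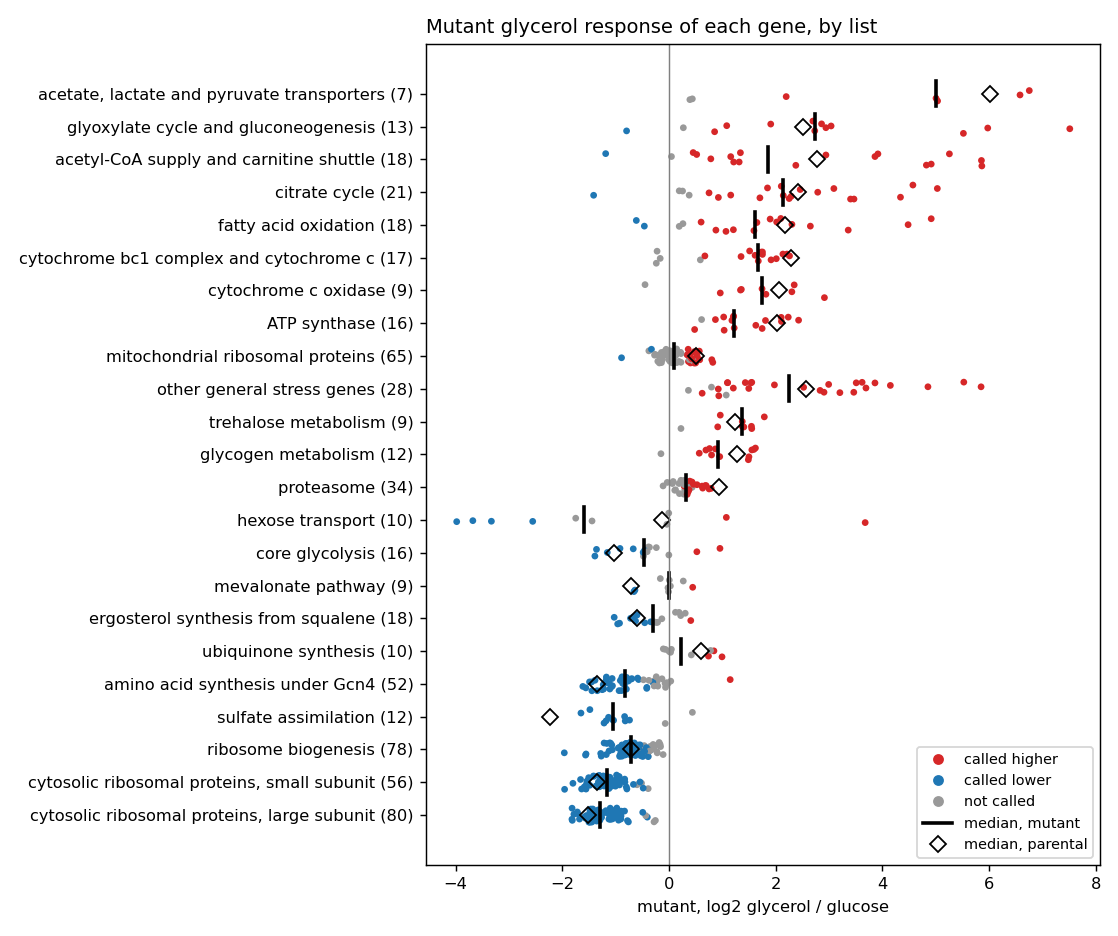
Log2 glycerol over glucose in the ERG12 DAmP mutant (horizontal axis) for 23 gene lists (rows). Each dot is a gene tested, the bar is the list's median in the mutant and the diamond its median in the parental strain. Uptake and glyoxylate genes sit far to the right, with mutant medians of 5.0 and 2.73, and ribosomal proteins to the left, with medians of -1.29 and -1.17.

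Carriers for 2- and 3-carbon acids were among the strongest rises. Of 7 acetate, lactate and pyruvate transporter genes, 5 rose and 0 fell, with a median of 5.0 against 0.022 over all genes. JEN1, the lactate and pyruvate permease of the plasma membrane, read 6.39 and 6.77 (6.58 ± 0.17, adjusted p = 1.98e-07, limma). Its processed signal was 74160 and 116400 in glycerol and 714.1 and 899.2 in glucose, so the 2 conditions were far apart on both arrays. ADY2, an acetate transporter, read 6.34 and 7.17, a fitted fold of 108. Its glucose signal was not well above background on either array. Such a gene is called dim in glucose below, and the size of its fold is uncertain. ATO2 and ATO3, related to ADY2, rose by 5.03 ± 0.30 and 2.20 ± 0.17. The mitochondrial pyruvate carrier is built from alternative subunits, and these went apart. MPC3, the subunit of respiring cells, rose by 5.01 ± 0.39, while the values of MPC1 (0.44) and MPC2 (0.39, the fermentative subunit) did not pass the test.

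The glyoxylate cycle and gluconeogenesis followed. Of 13 genes, 11 rose and 1 fell, with a median of 2.73. ICL1 (YER065C, chromosome V), isocitrate lyase, which starts the glyoxylate bypass, read 7.75 and 7.27 (7.51 ± 0.22, adjusted p = 2.55e-07, limma), the highest mean of all genes tested. Its processed signal was 261500 and 312400 in glycerol and 1013 and 1863 in glucose, a 183-fold difference. MLS1, malate synthase, dim in glucose, read 6.01 and 5.94, a fitted fold of 62.9. The gluconeogenic enzymes named next had lower values. PCK1, phosphoenolpyruvate carboxykinase, read 3.44 and 2.28 (2.86 ± 0.36). FBP1, fructose-1,6-bisphosphatase, dim in glucose, read 2.76 and 2.71, a fitted fold of 6.64. PYC1, a pyruvate carboxylase, read 2.71 and 2.68 (2.70 ± 0.11), and MDH2, the cytosolic malate dehydrogenase, read 3.47 and 2.61 (3.04 ± 0.26). VID24, the substrate receptor of the ligase that removes gluconeogenic enzymes when glucose returns, was the member that fell (-0.79 ± 0.11).

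Acetyl-CoA supply and the carnitine shuttle, which carries acetyl groups into mitochondria, rose in 16 of 18 genes and fell in 1 (median 1.86). CRC1, the carnitine carrier of the mitochondrial membrane, read 5.91 and 5.81 (5.86 ± 0.16). The carnitine acetyltransferases YAT1, CAT2 and YAT2 rose by 5.26 ± 0.18, 4.92 ± 0.20 and 4.82 ± 0.19. ACH1, which moves CoA between acetate and succinate, read 5.55 and 6.18 (5.86 ± 0.18). ACS1, the acetyl-CoA synthetase of respiring cells, dim in glucose, read 3.02 and 2.87, a fitted fold of 7.68. ALD5, a minor mitochondrial acetaldehyde dehydrogenase, was the member that fell, at -0.85 and -1.52 (-1.19 ± 0.20).

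The citrate cycle rose in 17 of 21 genes and fell in 1 (median 2.14). CIT2, the peroxisomal citrate synthase, read 4.85 and 5.21 (5.03 ± 0.17, adjusted p = 5.23e-07, limma), from 3471 and 5033 in glucose to 105800 and 194000 in glycerol. CIT3, a mitochondrial citrate and methylcitrate synthase, and IDP2, the cytosolic isocitrate dehydrogenase, rose by 4.57 ± 0.16 and 4.34 ± 0.14. SFC1, the carrier that exchanges cytosolic succinate for mitochondrial fumarate, read 5.22 and 5.82 (5.52 ± 0.28).

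In the respiratory chain, 10 of 11 succinate and NADH dehydrogenase genes rose and 0 fell (median 2.14). SDH1, the flavoprotein of succinate dehydrogenase, read 3.01 and 3.93 (3.47 ± 0.23, adjusted p = 1.85e-05, limma). The other subunits SDH2, SDH3 and SDH4 rose by 2.46, 2.29 and 2.14. The external NADH dehydrogenases NDE2 and NDE1 rose by 3.08 and 1.23, and the internal enzyme NDI1 by 2.07. Of 17 genes of the bc1 complex and cytochrome c, 13 rose and 0 fell (median 1.67), led by RIP1, the Rieske iron-sulfur subunit, at 2.07 and 2.45 (2.26 ± 0.18). The median of that list was 1.185 on array 1 and 1.852 on array 2. Of 9 nuclear genes of cytochrome c oxidase, 8 rose (median 1.74, with 1.292 on array 1 and 2.196 on array 2). COX7 had the highest value there, at 2.56 and 3.26 (2.91 ± 0.22). COX5B, the isoform used when oxygen is low, was at -0.45 and did not pass the test, while its aerobic partner COX5A rose by 1.82.

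ATP synthase rose in 15 of 16 genes (median 1.22), with ATP2, the catalytic beta subunit, at 2.02 and 2.18 (2.10 ± 0.11). The small proteins STF2 and STF1, which act on the inhibition of the enzyme, rose by 2.43 and 2.24. For genes that build or serve the chain the shares and medians were lower. Assembly factors of cytochrome c oxidase rose in 11 of 22 (median 0.32), with COX20 at 1.09 ± 0.14 and SCO2 at 0.88. Mitochondrial ribosomal protein genes rose in 17 of 65 and fell in 2 (median 0.10), a share of rises close to the 24.7% of all genes. These 2 groups rested on both arrays: without array 1 the assembly factors had 6 calls and without array 2 they had 4, and the mitochondrial ribosome had 10 and 3 rises. Of the 6 transcripts encoded in mitochondrial DNA that were tested, OLI1 (1.55), COX2 (0.82) and COX3 (0.72) rose, 3 in all, and 1 did without array 2. COB (0.04 and 1.14) and ATP6 (-0.44 and 1.12) differed between the arrays by more than 1 and were not called.

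Genes for glycerol itself moved in both directions. Of 13 listed genes, 9 were tested, and 5 rose and 2 fell (median 0.90). STL1, the glycerol importer, GUT1, glycerol kinase, and DAK2, a dihydroxyacetone kinase, were not tested. GUT2, the mitochondrial glycerol-3-phosphate dehydrogenase, read 2.34 and 2.88 (2.61 ± 0.22, adjusted p = 6.94e-05, limma), from 2049 and 2612 in glucose to 11000 and 19870 in glycerol. GCY1, a glycerol dehydrogenase, read 2.56 and 3.29 (2.93 ± 0.19). The enzymes that make glycerol went in opposite directions. GPD1, which makes glycerol 3-phosphate, read 1.56 and 1.60 (1.58 ± 0.15), while GPP2 and GPP1, the phosphatases that turn it into glycerol, fell to -2.16 ± 0.24 and -1.0. FPS1, the channel through which glycerol leaves the cell, was at 0.16 and did not pass the test.

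Of 20 genes of hexose transporters and glucose sensors, 10 were tested, and 4 fell and 2 rose (median -1.59). HXT2, a transporter of low glucose, read -4.82 and -3.14 (-3.98 ± 0.39, adjusted p = 0.000126, limma), from 38040 and 21170 in glucose to 1078 and 2028 in glycerol. HXT1, the low-affinity transporter of high glucose, read -4.53 and -2.83 (-3.68 ± 0.49). HXT3, another low-affinity transporter, read -3.47 and -3.19, from 120100 and 122300 to 10450 and 13060, and was 10.0-fold lower. HXT4 read -2.15 and -2.96 (-2.55 ± 0.27). HXT5, the transporter of slowly growing cells, rose at 3.21 and 4.15 (3.68 ± 0.30), as did the low-glucose sensor SNF3 (1.08 ± 0.16). The group median depended on the arrays, at -0.26 without array 1 and -2.45 without array 2.

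Among the sugar kinases, 3 of 5 rose and 1 fell. HXK2, the main hexokinase of growth on glucose, fell (-0.92 ± 0.15), and GLK1, glucokinase, rose by 2.09 ± 0.23. HXK1 read -0.43 and 1.49, opposite in sign between the arrays, and was not called. Core glycolysis fell in 7 of 16 genes and rose in 2 (median -0.46). Without array 2, 4 fell and 1 rose. PFK2, the beta subunit of phosphofructokinase, fell by 0.92, and TDH2, ENO1 and ENO2 fell by 1.39, 1.36 and 1.16. PYK2, the minor pyruvate kinase, and GPM2, a phosphoglycerate mutase homolog, rose by 0.52 and 0.96. TDH2 and TDH3, ENO1 and ENO2, and HXT6 and HXT7 are pairs of near-identical genes whose probes may share signal, so values within a pair are uncertain.

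Pyruvate decarboxylation and ethanol metabolism split evenly, with 4 of 10 genes higher and 4 lower. ADH2, the alcohol dehydrogenase that consumes ethanol, dim in glucose, read 4.62 and 4.04, a fitted fold of 20.1. ADH1, which makes ethanol, fell by 1.07, and PDC1, the main pyruvate decarboxylase, was at -0.29 and did not pass the test. In the pentose phosphate pathway 7 of 14 genes rose and 2 fell. The minor isoforms GND2 (2.87 ± 0.18), NQM1 (3.03), SOL4 (2.83) and TKL2 (4.59 ± 0.21) were the high ones, and the major transketolase TKL1 fell by 1.11.

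Of 45 carbon source regulators tested, 21 rose and 5 fell (median 0.37). With spike-in centring relative to the median gene, 14 rose and 5 fell. The median was 0.33 without array 1 and 0.31 without array 2. CAT8, the activator of gluconeogenic genes, read 3.46 and 3.73 (3.59 ± 0.20, adjusted p = 6.61e-06, limma), from 3135 and 2947 to 33460 and 39440. ADR1, the activator of ethanol and fatty acid genes, read 3.22 and 3.59 (3.41 ± 0.20), and HAP4, the activating subunit of the Hap complex, rose by 1.63. REG2, a regulatory subunit of the Glc7 phosphatase, read 3.90 and 4.02 (3.96 ± 0.14). These rises were alike on both arrays. The repressors MIG2 and MIG3 fell at -2.68 and -2.16 and at -2.59 and -1.56, whereas MIG1, the related repressor that Snf1 inactivates, rose by 0.55. SNF1 itself rose by 0.40. STD1, a partner of the glucose sensors, fell by 1.15, and its homolog MTH1 read -1.36 and 0.08 and was not called.

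Fatty acid oxidation rose in 14 of 18 genes and fell in 2 (median 1.62). POT1, the peroxisomal thiolase, dim in glucose, read 4.42 and 4.55, a fitted fold of 22.3. PXA1, a subunit of the fatty acid importer of peroxisomes, ECI1, an enoyl-CoA isomerase, and CTA1, peroxisomal catalase, rose by 2.65, 2.10 and 3.36. Peroxisome biogenesis genes rose in 13 of 29 and fell in 2 (median 0.30), with PEX18 at 1.95 and PEX11 at 0.85. Leaving out array 2 gave 8 rises in the biogenesis group.

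Ribosomal protein genes fell almost as a whole. Of 80 large-subunit genes, 77 fell and 0 rose (median -1.29), and of 56 small-subunit genes, 53 fell and 0 rose (median -1.17). RPL3 read -1.66 and -1.97 (-1.82 ± 0.13, adjusted p = 2.54e-05, limma), from 15410 and 16640 to 4259 and 3796. RPS9A read -1.31 and -2.61 (-1.96 ± 0.29). Most ribosomal proteins are encoded by gene pairs whose probes may share signal. Ribosome biogenesis genes fell in 61 of 78 (median -0.70), with NSR1, a nucleolar protein of ribosomal RNA processing, at -1.59 and -2.34. RPA190, the largest subunit of RNA polymerase I, read -1.74 and -2.02 (-1.88 ± 0.12), and 6 of the 13 genes of that enzyme fell. Without array 2 the biogenesis count was 23.

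Translation and its supply of amino acids also fell. Aminoacyl-tRNA synthetases fell in 18 of 20 genes (median -0.98) and translation factors in 17 of 37, with 3 that rose. YEF3, elongation factor 3, fell by 1.68, while its paralog HEF3 rose at 2.79 and 2.60. Amino acid synthesis genes under Gcn4, the activator of starvation for amino acids, fell in 37 of 52 and rose in 1 (median -0.83). LYS4, HIS5, ARO4 and BAT1 were the lowest of these, at -1.61, -1.56, -1.49 and -1.45. Purine synthesis fell in 13 of 17 genes and glycine and one-carbon metabolism in 7 of 10, with GLY1, threonine aldolase, at -1.61 and GUA1, GMP synthase, at -1.31. Without array 2 only 5 translation factors fell.

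Nitrogen uptake was mixed. Of 28 genes for ammonium use and amino acid permeases, 8 rose and 9 fell, beside 24.7% and 21.9% of all genes. Their median of 0.06 was -0.09 without array 1. PUT4, the proline permease, rose at 3.32 and 3.50, and the glutamate dehydrogenases GDH3 and GDH2, the latter degrading glutamate, rose by 2.69 and 1.87. The ammonium permeases MEP2 and MEP3 and the broad amino acid permease AGP1 fell by 1.31, 1.27 and 1.22. Of 11 allantoin and urea genes 5 fell, including DUR12 (the urea amidolyase DUR1,2) by 1.34.

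In the pathway that the mutation affects, 1 of 9 genes tested rose and 2 fell, where 46.6% of all genes were called in either direction, with a median of -0.01 against 0.022 over all genes. ERG8, phosphomevalonate kinase, the step after Erg12, read -0.59 and -0.72 (-0.66 ± 0.10, adjusted p = 0.00131, limma). IDI1, isopentenyl diphosphate isomerase, read -0.55 and -0.73 (-0.64 ± 0.11). HMG2, 1 of the HMG-CoA reductases, read 0.38 and 0.51 (0.44 ± 0.10). For HMG1 (-0.01), ERG13 (-0.02), ERG10 (0.03), MVD1 (-0.16), BTS1 (0.01) and ERG20 (0.27) the difference did not pass the test. With the ratios centred on the spike-ins and set relative to the median gene, 0 of the 9 were called.

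Downstream, ergosterol synthesis from squalene fell in 9 of 18 genes and rose in 1 (median -0.31). ERG1, squalene epoxidase, read -1.02 and -1.03 (-1.03 ± 0.10, adjusted p = 0.000104, limma), from 4923 and 6105 to 2287 and 2672. ERG2, ERG7 (lanosterol synthase) and ERG5 fell by 0.96, 0.93 and 0.72, and ERG24 was the 1 gene that rose, by 0.41. Without array 1 the count was 5, and without array 2 it was 7. Of the other products of the pathway, ubiquinone synthesis rose in 3 of 10 genes, a share near that of all genes (COQ4 by 0.99, COQ5 by 0.84 and CAT5 by 0.74) and in 1 without array 2. In haem synthesis HEM15, ferrochelatase, rose at 0.70 and 1.87, HEM13 fell by 0.70, YAH1 fell by 1.11, and 8 of 11 genes did not pass the test. Genes of dolichol synthesis and protein prenylation rose in 4 of 20 and fell in 4, shares near the 24.7% and 21.9% of all genes, and 1 rose without array 2.

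Many stress and reserve genes rose. Of 28 general stress genes 25 rose and 0 fell (median 2.25). CTT1, cytosolic catalase, read 3.27 and 3.65, and GRE1, a hydrophilin, read 5.88 and 5.82 (5.85 ± 0.13). Small heat shock proteins, the disaggregase and Hsp90 rose in 8 of 16 genes and fell in 0 (median 0.45), and in 5 with spike-in centring relative to the median gene. HSP12, a small membrane-associated stress protein of that list, read 3.64 and 4.46 (4.05 ± 0.18, adjusted p = 2.21e-06, limma), from 6506 and 6290 to 80020 and 138800. HSP26, a small heat shock chaperone, read 3.71 and 4.55. Trehalose genes rose in 8 of 9 (median 1.37) and glycogen genes in 11 of 12 (median 0.91). TPS1, trehalose-6-phosphate synthase, read 1.29 and 1.80 (1.55 ± 0.17), and the glycogen synthases GSY1 and GSY2 rose by 1.5 and 1.49. Of 13 Hsp70 chaperone genes 5 rose and 5 fell, and with spike-in centring relative to the median gene 2 rose and 3 fell. The stress forms SSA3 and SSA4 rose by 3.21 and 1.09, and the ribosome-bound SSB1 and SSB2, a near-identical pair, fell by 1.87 and 1.64.

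Genes of protein turnover rose in part. Proteasome genes rose in 14 of 34 (median 0.33) and autophagy genes in 15 of 27 (median 0.41), with 0 falling in either group. With spike-in centring relative to the median gene, 11 autophagy genes rose. The autophagy median was 0.41 without array 1 and 0.47 without array 2. RPN4, the activator of proteasome genes, read 0.49 and 0.19, a call lost whichever array was left out, and ATG8, the membrane protein of autophagosomes, rose by 1.56. Without array 2 the proteasome count was 1, and it was also 1 with spike-in centring relative to the median gene. Mitotic and daughter cell genes rose in 14 of 21, including DSE1, DSE2 and CTS1, which act in cell separation, by 1.15, 1.06 and 1.02. That count was 8 without array 1 and 6 without array 2. Of 24 phosphate regulon genes, 2 rose and 6 fell, the latter near the 21.9% of all genes, and 3 fell without array 1. The lowest was PHO84, the high-affinity phosphate permease, at -3.57 and -2.56 (-3.06 ± 0.30, adjusted p = 0.000125, limma).

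**Figure D2:**
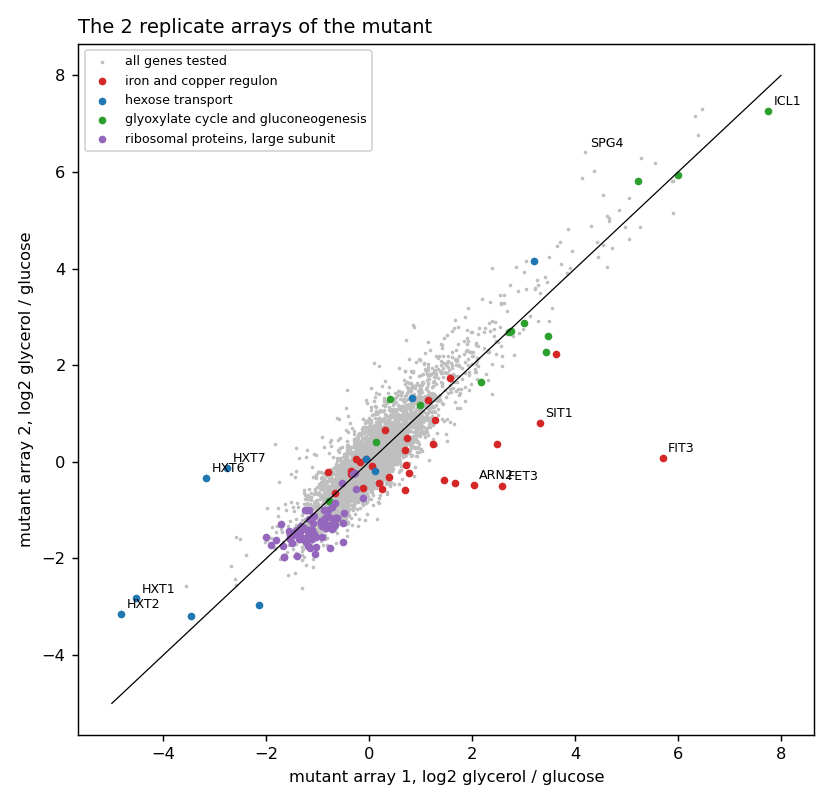
Log2 glycerol over glucose on mutant array 1 (horizontal axis) against mutant array 2 (vertical axis), 1 point per gene tested, with gene lists in colour. Most genes lie along the diagonal (r = 0.8975), and iron genes such as FIT3 (5.70 and 0.09) lie far below it.

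The 2 mutant arrays disagreed on a small set of genes, iron genes among them. FIT3, a cell wall mannoprotein that holds siderophore iron, read 5.70 on array 1 and 0.09 on array 2. Its glycerol signal was 100000 scanner units on array 1 and 2168 on array 2, while its glucose signal was 1831 and 2169. The glycerol channel of array 1 therefore stood apart from the other 3 readings. FET3, the multicopper oxidase of high-affinity iron uptake, read 2.59 and -0.49, and the siderophore transporters SIT1, ARN2 and ARN1 read 3.32 and 0.81, 2.03 and -0.47, and 1.67 and -0.44. TIS11, which degrades transcripts of iron-using proteins, read 2.49 and 0.38. Of these 6, SIT1 was called (adjusted p = 0.0271, limma; not called without array 1) and FIT3 (0.117), FET3 (0.267), ARN2 (0.336), ARN1 (0.356) and TIS11 (0.0594) were not.

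Of 30 iron and copper genes, 10 (33.3%) were more than 1 log2 unit higher on array 1 than on array 2, against 30 of 5343 genes (0.561%) in all. The same shift appeared on the arrays of mutant over parental strain in glycerol, where FIT3 read 5.07 and -0.30, FET3 2.15 and -0.51, and ARN2 2.40 and -0.05. There 9 of those 10 genes were again over 1 higher on array 1, and on the parental glycerol over glucose arrays 0 of them were. As a group the iron genes rose in 8 of 30, a share near that of all genes, and fell in 2, with a median of 0.40 that was -0.08 without array 1 and 0.71 without array 2. FIT2, a second mannoprotein, rose on both arrays (3.63 and 2.22), and so did HMX1, haem oxygenase (1.57 and 1.74).

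Hexose transporters went the other way. HXT6 and HXT7, the near-identical high-affinity transporters, read -3.16 and -0.33 and -2.76 and -0.12, and neither was called (adjusted p = 0.0654 and 0.100, limma). HXT6 signal in glycerol was 5241 on array 1 and 20410 on array 2. Of the 10 tested genes of hexose transporters and glucose sensors, 4 (40%) were over 1 lower on array 1, against 91 genes (1.7%) in all. Of these 4, 3 were so on the mutant over parental glycerol arrays as well. On the mutant over parental glucose arrays, 2 of these 4 genes were over 1 higher on array 1. SPG4, a stationary phase gene, read 4.18 and 6.41, and its glucose signal was 2880 and 940.7. Respiratory genes were also among those over 1 lower on array 1. They were 6 of 17 genes of the bc1 complex and cytochrome c (35.3%) and 2 of 9 of cytochrome c oxidase (22.2%). Of 18 respiratory growth and stationary phase genes, 6 (33.3%) were lower and 1 higher, and of 11 succinate and NADH dehydrogenase genes 0 were. In all, 121 genes differed by more than 1 between the 2 mutant arrays and 35 between the 2 parental arrays.

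**Figure D3:**
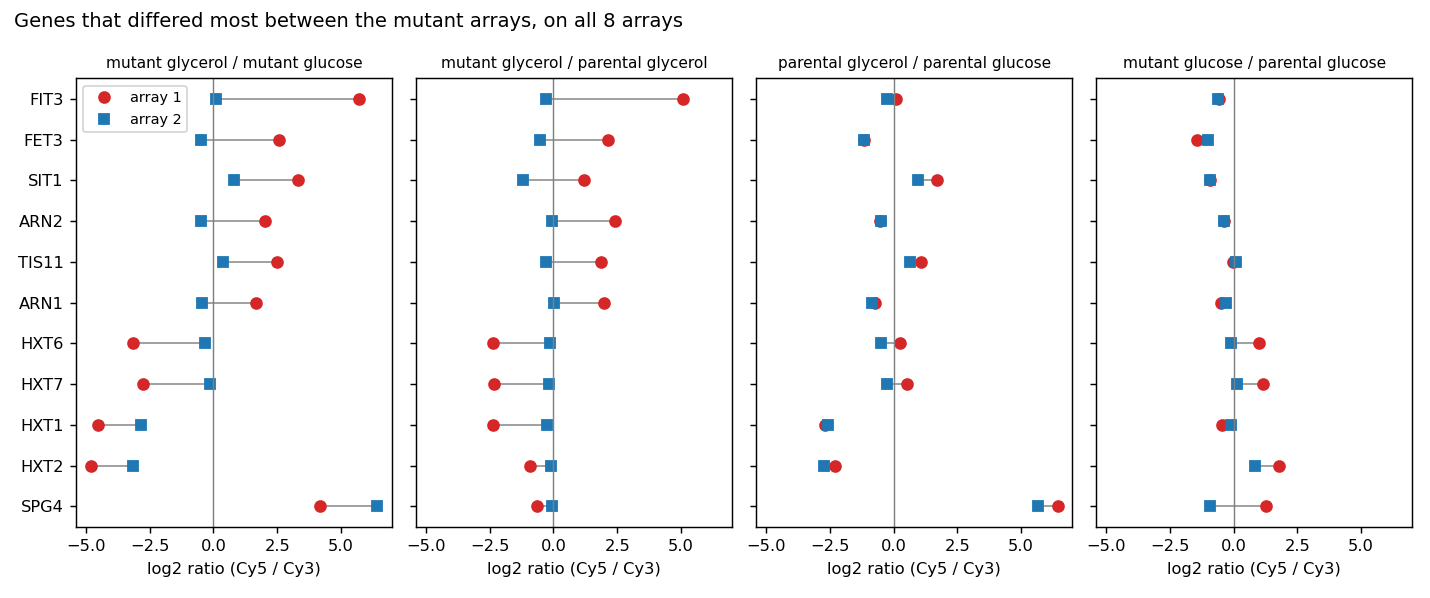
Log2 ratios of 11 genes (rows) on all 8 arrays, grouped by comparison, with replicate arrays 1 and 2 marked apart. FIT3 stands at 5.70 and 5.07 on the array 1 of the 2 comparisons that hold mutant glycerol RNA as test, and between -0.62 and 0.11 on the other arrays.

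The mutant response was then set against the same response in the parental strain, to find which genes answered glycerol differently. The 2 comparisons share no RNA. In the authors' combined table the parental column has the opposite sign to the scanner ratios (r = -0.995), and the direction used here is that of the dyes in the labels, glycerol over glucose. In the parental strain 1679 genes were called higher (31.4%) and 1631 lower (30.5%), 62% in either direction, against 2491 (46.6%) in the mutant. The mean ratios of the strains correlated at r = 0.9254 across 5343 genes, which are not independent replicates, and the slope of mutant on parental was 0.7424. Of the 3310 genes called in the parental strain, 2766 (83.6%) had a smaller change in the mutant, a share that the choice of genes by their parental change raises. Of the 2491 genes called in the mutant, 830 (33.3%) had a smaller change in the parental strain. The spread of log2 ratios was 0.8308 (SD) in the mutant and 1.036 in the parental strain.

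A test of the difference itself called 46 genes with a higher ratio in the mutant (0.861% of 5343) and 54 with a lower one (1.01%). At an unadjusted p under 0.05 there were 1135. Among genes called higher in both strains (1154), the difference was lower in the mutant for 45 and higher for 3. Of 1045 genes called lower in both, it was higher, that is less negative, for 30 and lower for 1. These counts were fragile. They were 0 and 0 when mutant array 1, parental array 1, parental array 2 or either array of mutant over parental in glucose was left out, 85 and 138 without mutant array 2, and 47 and 43 without either array of mutant over parental in glycerol. Under Agilent's processed ratios they were 15 and 5, under median centring 240 and 18, and under spike-in centring relative to the median gene 13 and 2, so the share of higher calls moved from 46.0% to 75.0%, 93.0% and 86.7%. Median centring shifted the median difference of all genes to 0.29.

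**Figure D4:**
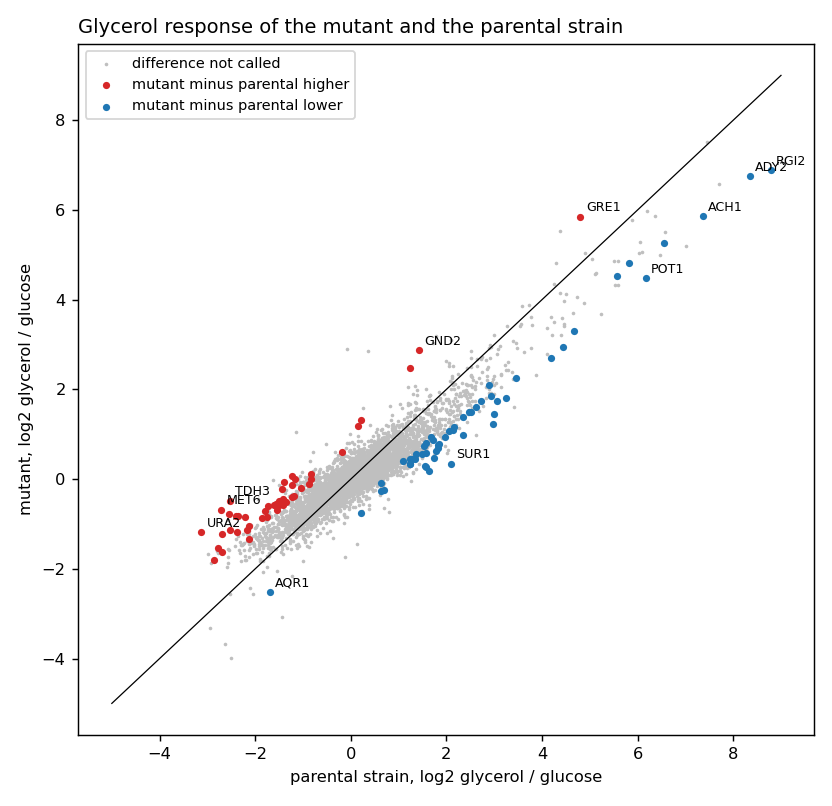
Log2 glycerol over glucose in the parental strain (horizontal axis) and in the ERG12 DAmP mutant (vertical axis), 1 point per gene tested, with the 46 genes of higher and 54 of lower difference in colour. Points follow a line flatter than the diagonal (slope 0.7424).

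Sulfur genes made up 12 of the 46 with a higher difference. Of 12 sulfate assimilation genes, 10 fell in the mutant and 11 in the parental strain, but the medians were -1.05 and -2.23, and the difference was called higher for 7 of 12. Background for such a call was 0.861%. SUL2, a sulfate permease, read -0.62 and -1.02 in the mutant and -2.40 and -2.39 in the parental strain (difference 1.58 ± 0.21, adjusted p = 0.0243, limma). MET3, ATP sulfurylase, read -0.95 and -1.12 against -2.13 and -2.15, and MET10 and MET5, the sulfite reductase subunits, read -1.05 and -1.39 and -1.21 and -1.05 against -2.70 and -2.68 and -2.76 and -2.29. Since these genes were picked by their called difference, the gap between the arrays of the 2 strains adds no support. MET17 differed by 1.54 ± 0.29, MET1, which makes the sirohaem of sulfite reductase, by 1.21 ± 0.23, and MET2, homoserine acetyltransferase, by 1.34 ± 0.25. MET2 was at -0.07 in the mutant, where it was not called. Of these 7, SUL2, MET3, MET10 and MET5 were also called with Agilent's processed ratios, and MET17, MET1 and MET2 were not. With spike-in centring relative to the median gene SUL2 and MET17 were called.

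In the methionine list 5 of 24 genes differed, each higher. MET6, methionine synthase, read -0.28 and -1.08 in the mutant and -2.63 and -2.79 in the parental strain (difference 2.03 ± 0.26, adjusted p = 0.0243, limma). MET13, the methylenetetrahydrofolate reductase, and STR3, cystathionine beta-lyase, differed by 1.77 ± 0.34 and 1.06 ± 0.20. The other members were SAM2, an S-adenosylmethionine synthetase, and MUP3, a low-affinity methionine permease, named after their values were seen, which differed by 1.02 ± 0.17 and 1.03 ± 0.17. The direct comparison in glycerol, mutant over parental strain on other arrays, read 1.73 and 1.36 for MET6. It read 2.03 and 1.73 for SUL2 and 1.62 and 1.65 for MET3. Its deviations between arrays 1 and 2 correlated at 0.7628 with those of the mutant arrays. Whether both held RNA of the same cultures was not tested, so this reading may not be independent. In glucose the same comparison gave means of 0.15, 0.42 and 0.65. Over the 12 sulfate genes the medians of mutant over parental strain were 1.43 in glycerol and 0.31 in glucose.

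**Figure D5:**
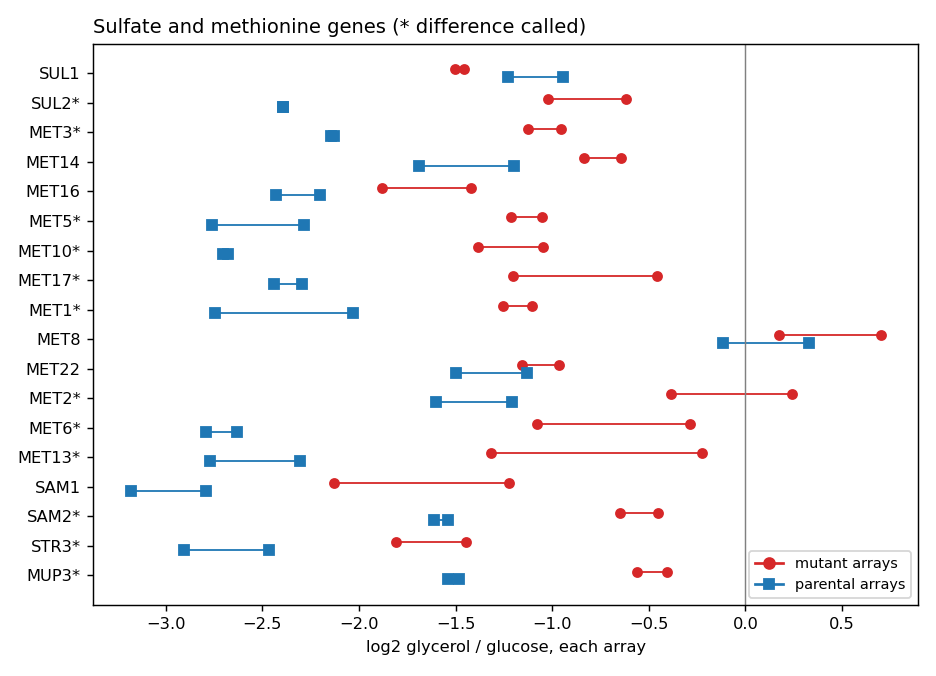
Log2 glycerol over glucose on each array for the 12 sulfate assimilation genes and 6 methionine genes chosen after their values were seen, mutant and parental strain in different colours. Genes with a called difference carry a star. Their mutant points lie nearer 0 than the parental points, as the choice by that call makes likely (SUL2 -0.62 and -1.02 against -2.40 and -2.39).

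Other genes that fell less in the mutant had various roles. TDH3, the main glyceraldehyde-3-phosphate dehydrogenase, read -0.22 and -0.74 in the mutant, where it was not called, and -2.13 and -2.93 in the parental strain (difference 2.06 ± 0.33, adjusted p = 0.0340, limma). URA2, which starts pyrimidine synthesis, read -0.93 and -1.44 against -2.97 and -3.30 (1.95 ± 0.20). ADH5 (1.38 ± 0.14) and the glycine decarboxylase gene GCV2 (1.24 ± 0.22) also fell less. PIP2, a transcription factor of the oleate response, was at 0.27 and -0.13 in the mutant and at -0.95 and -1.50 in the parental strain. Of the genes called higher in both strains, 3 rose more in the mutant. They were GND2 (2.98 and 2.76 against 1.61 and 1.23), SHH4, a homolog of the succinate dehydrogenase subunit Sdh4 (2.46 and 2.51 against 1.21 and 1.26), and GRE1 (5.88 and 5.82 against 5.0 and 4.61). A higher difference was also called for 3 genes that rose in the mutant and were not called in the parental strain.

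Genes of acetate use and respiration were among those that rose less in the mutant. RGI2, a protein of respiratory growth, read 6.47 and 7.29 in the mutant and 8.67 and 8.90 in the parental strain (difference -1.90 ± 0.25, adjusted p = 0.0243, limma). ADY2 (-1.59 ± 0.26), ACS1 (-1.51 ± 0.21), ACH1 (-1.50 ± 0.25) and YAT1 (-1.29 ± 0.25) handle acetate and acetyl groups. POT1 read 4.42 and 4.55 against 6.31 and 6.03 (-1.69 ± 0.17). MDH1, mitochondrial malate dehydrogenase (-1.21 ± 0.16), QCR2, a core subunit of the bc1 complex (-0.98 ± 0.17), and the oxidase assembly genes COX17 (-1.28) and COX20 (-1.04) serve respiration. For RGI2, ADY2, ACS1 and POT1 the glucose signal was not well above background in the mutant, so their mutant ratios, and the differences, are uncertain in size.

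The rest of the genes that rose less included SUR1, a subunit of a sphingolipid mannosyltransferase (0.02 and 0.67 against 1.97 and 2.23), CMK1, a calmodulin-dependent kinase (0.82 and 1.63 against 2.77 and 3.19), and HEF3 (2.79 and 2.60 against 4.25 and 4.15). RPN4 (0.49 and 0.19 against 1.25 and 1.21) and UBI4, polyubiquitin (0.70 and 1.17 against 1.94 and 2.0), act in protein breakdown. Across the proteasome list 14 of 34 genes rose in the mutant and 30 of 34 in the parental strain, with medians of 0.33 and 0.93, and the difference was called for 1 gene. AQR1, a drug and amino acid exporter, fell more in the mutant, at -2.60 and -2.42 against -1.83 and -1.57. In opposite directions, higher in the mutant and lower in the parental strain, 4 genes were called. They were MET30 (0.37 and -0.36), a ubiquitin ligase subunit that restrains sulfur genes, ACS2 (0.45 and -0.34), the acetyl-CoA synthetase of glucose growth, UBP2 (0.38 and -0.36) and SPC110 (0.40 and -0.34), and the difference itself was called for 0 of these 4. Each of the 4 lost its call in the mutant when mutant array 1 was left out.

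Several lists had smaller medians in the mutant without a called difference for most of their members. Cytochrome c oxidase had medians of 1.74 in the mutant and 2.06 in the parental strain, ATP synthase 1.22 and 2.03, and the bc1 complex 1.67 and 2.30, with 0, 0 and 2 called differences. The oxidase median was 1.292 on mutant array 1 and 2.196 on mutant array 2, so on array 2 it was not below the parental one. For ATP synthase the mutant arrays gave 1.123 and 1.5, and for the bc1 complex 1.185 and 1.852. The mitochondrial ribosome rose in 17 of 65 genes in the mutant and 41 of 65 in the parental strain, and the difference was called for 2. In the mevalonate pathway the medians were -0.01 and -0.72, with 2 genes lower in the mutant, 5 lower in the parental strain, and 0 called differences among 9. For ergosterol synthesis they were -0.31 and -0.60, and 0 of 18 differences were called. The self-test on simulated differences recovered 14.9% of changes of log2 0.5 and 79.1% of changes of log2 1. Its noise was drawn independently for each array, so these shares may not hold for the real arrays, whose deviations were partly correlated. Smaller differences were often missed even in that setting.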

How the data were processed

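The data were 8 two-colour Agilent arrays of Saccharomyces cerevisiae, 2 biological duplicates for each of 4 comparisons, and 2 of them compared the ERG12 DAmP mutant in glycerol (Cy5) and glucose (Cy3), per the labels. Per the file headers, Agilent Feature Extraction 10.10.1.1 made the median intensity of spots and local backgrounds, the processed intensity, the log10 ratio of Cy5 over Cy3 and the flags of 0 or 1. The authors' combined table held log2 ratios of 6313 rows, which matched the mutant ratio used here at r = 0.992 (slope 1.01), with a column median of -0.0454. The submitters' processing notes name limma. The genome build behind the probes is not given in the sources used here.

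Signals were background-corrected (normexp, offset 50), normalized within arrays by loess, averaged over the 2 spots of a gene and fitted with limma 3.58.1 in R 4.3.3 (lmFit, eBayes, 1 coefficient per comparison, all 8 arrays, 4 residual degrees of freedom, prior 4.135), with Benjamini-Hochberg adjustment over 5343 genes. These were well above background in all 4 channels of at least 1 of the 4 RNA sources, and 4718 were so on all 16 channels. A gene dim in glucose and bright in glycerol could pass through glycerol alone. The difference was the mutant minus the parental coefficient. Folds printed for genes dim in glucose are fitted folds, since their glucose signals lay above the lowest signal well above background. Symbols came from a RefSeq gene table, which matched 5756 of 6256 genes. The comparisons and 70 gene lists were chosen with earlier results of these data known. Named genes were the 20 highest and 20 lowest, the 4 largest called members per list in each direction, every member of short lists and every carbon source regulator, the largest differences overall and per list, genes of opposite direction, and the 10 whose mutant arrays differed most. In data simulated for the mutant comparison over 5343 genes, with noise independent between arrays, 98.5% of changes of log2 1 were recovered. The labels number no replicates. The number of arrays limits the precision. Median standard errors were 0.13 for the mutant ratio and 0.183 for the difference. Alternatives covered the background correction, normalization, filter, block, design and each array left out. Some results are not reported here.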

Additional observations from a re-analysis of the deposited data

Results flagged for a closer look

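The results here are differences between the strains, found by a limma test of the difference between the glycerol response of the mutant and that of the parental strain. It called 46 genes with a higher and 54 with a lower response in the mutant, and the counts fell to 0 and 0 in 5 of the fits that left out 1 array. Values are log2, mutant minus parental strain, and no explanation of them was tested.

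Among sulfur genes the differences were 2.03 for MET6, 1.77 for MET13, 1.58 for SUL2, 1.54 for MET17, 1.48 for MET10, 1.39 for MET5, 1.34 for MET2, 1.21 for MET1, 1.1 for MET3, 1.06 for STR3, 1.02 for SAM2 and 1.03 for MUP3. Other genes with a less negative response in the mutant were TDH3 (2.06), URA2 (1.95), ADH5 (1.38), PIP2 (1.29) and GCV2 (1.24). Larger rises were found for GND2 (1.45), SHH4 (1.25) and GRE1 (1.04).

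Of the genes with a smaller rise, those of respiration and acetate gave -1.90 for RGI2, -1.59 for ADY2, -1.51 for ACS1, -1.50 for ACH1, -1.29 for YAT1, -1.21 for MDH1, -0.98 for QCR2, -1.28 for COX17 and -1.04 for COX20. The thiolase POT1 gave -1.69. The remaining ones were CMK1 (-1.75), SUR1 (-1.75), HEF3 (-1.50), UBI4 (-1.03) and RPN4 (-0.89), and AQR1 (-0.81) fell further in the mutant.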

How the results depend on the processing

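The mutant counts of 1319 and 1172 moved by less than 1.5 times under Agilent's ratios, offset 0, both filters, the loop model and the block (1285 and 1135), and to 911 and 821 with the 2 mutant arrays alone. The split moved from 53.0% higher to 47.2% with Agilent's ratios and 59.3% with median centring. Centred on spike-ins the counts were 132 and 4698 (2.73% higher, median gene -1.44), and relative to the median gene 659 and 453. The route through the other 6 arrays gave 694 and 490, with URA3 (-0.24) and UBP2 (-0.12) reversed. Leaving out single arrays gave 803 to 1320 higher and 650 to 1177 lower, and 779 and 629 of the called genes were called again without mutant array 2. Parental counts were 75 and 5065 with spike-in centring and 984 and 1046 relative to the median gene, and the split was 37.8% higher with median centring.

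The difference (46 and 54) gave 15 and 5 with Agilent's ratios, 240 and 18 with median centring, and 26 lower with offset 0. It gave 1988 and 0 with spike-ins, 13 and 2 relative to the median gene, and 521 and 509 in the loop model. The other comparisons gave 1 and 0, and there 46 of 46 and 54 of 54 had the same sign. Those genes were picked by their called difference and that route may not be independent, so the shared sign adds no support. With offset 0 the split was 62.9% higher. Leaving out single arrays gave 0 to 85 higher and 0 to 138 lower. With slide row as a replicate block the counts were 22 and 21. The main fit did not take rows as pairs and treated the arrays as independent. Deviations of the mutant arrays correlated at 0.7628 with those of mutant over parental strain in glycerol. Both had mutant glycerol RNA in Cy5. The value was -0.4489 for glucose, where mutant glucose RNA had the opposite dye, and -0.06178 for the parental response, with no shared RNA type. The 2 mutant over parental comparisons, also without a shared type, gave -0.2858. Errors may thus be linked between arrays, which the p-values leave out of account. Whether rows shared cultures was not tested. The cause of the moves in the counts was not tested. Spike-in centring relative to the median gene was added after seeing the data.

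Of 173 called genes named for the mutant, 23 lost the call when some array was left out, 0 reversed, and 2 lost it under the block. Of 36 genes named for the difference, 36 lost the call in some such fit, 0 reversed, and 16 lost it under the block. For the mutant ratio a reversal in the leave-out fits was not possible. The 2 mutant arrays had the same sign in every called gene, and the other arrays do not enter that ratio. Low-signal genes limit what can be seen: in 47 rises the glucose signal was not well above background on either array.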

Other observations

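Gene groups not described above moved in part, beside 24.7% of all genes that rose and 21.9% that fell. Phospholipid synthesis genes rose in 9 of 25 and fell in 2 (5 and 0 without array 1), and oxidative stress genes rose in 18 of 32 and fell in 5. Of the latter, SOD1, the cytosolic superoxide dismutase, and AHP1, a peroxiredoxin, rose by 2.49 and 2.44, and OYE2 fell by 1.41. Mitochondrial carriers rose in 9 of 25 and fell in 9. PET9, the ADP/ATP carrier, rose by 2.13, and GGC1, the GTP/GDP carrier, and OAC1, the oxaloacetate carrier, fell by 1.79 and 1.47. Cell wall genes rose in 10 of 31 and fell in 4, with 2 rises when array 1 was left out. FKS1, a glucan synthase subunit, fell by 1.1.

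In the unfolded protein response list 3 of 15 genes rose and 4 fell (2 and 2 without array 1, 1 and 2 without array 2), with ERO1, the oxidase of disulfide formation, at -1.82 ± 0.18 in the mutant and -0.99 in the parental strain. Among 9 mating genes tested FUS3, the pheromone kinase, rose by 1.72 and FUS1 fell by 0.70. Drug resistance genes rose in 4 of 18 and fell in 7 (3 and 4 without array 1, 2 and 6 without array 2), with PDR10 at 1.79 and PDR5, the main multidrug pump, at -1.36. Zinc regulon genes fell in 4 of 8, in 2 without array 2 and in 0 with spike-in centring relative to the median gene. Histone genes rose in 4 of 10, led by the linker histone HHO1 (1.01), and the count was 1 without array 2. YNR014W read -1.83 and 0.38 on the mutant arrays and -1.66 and 0.03 on the arrays of mutant over parental strain in glycerol, 1 of the 10 genes with the widest gap.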
